A study of Mus musculus with 16 samples.

Results

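The genes described here are 37 interferon-stimulated genes of the mouse, taken as a fixed list of symbols from the 33641 gene symbols that the deposited tables hold. All 37 symbols were found, and their levels were read in all 16 libraries. The libraries were made from bulk RNA of the left ventricle of the heart and of whole subcutaneous white adipose tissue (scWAT) of C57BL/6J mice aged 28 weeks. One genotype is labelled Adipo-HuR KO and is described as a deletion of HuR restricted to adipocytes, and the other is labelled wild-type. HuR, the product of Elavl1, attaches to AU-rich stretches of messenger RNAs and affects their stability and translation. The sources used here do not give the promoter that drives the deletion, the alleles or the sex of the mice. Heart was represented by 4 mice labelled KO (A25, A29, A30 and A31) and 4 wild-type mice (A5, A7, A8 and A14). The scWAT libraries came from 3 mice labelled KO (A24, A26 and A30) and 5 wild-type mice (A5, A7, A8, A12 and A14). The numbers come from the titles and are taken here to name mice, 11 in all. A number was shared by a heart and an scWAT library in 5 cases, of which 4 were wild-type and 1, A30, was labelled KO. The study asks what loss of HuR in fat cells changes in fat and in the heart.

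Interferons are secreted proteins that cells release when they sense viral or misplaced nucleic acid. Type I interferons bind a receptor made of IFNAR1 and IFNAR2, and the kinases JAK1 and TYK2 then activate a transcription factor complex that holds STAT2 and IRF9 and binds a promoter sequence called the interferon-stimulated response element. Genes with that element encode sensors of foreign RNA and DNA, transcription factors that feed back on the pathway, and effectors that block the replication of viruses. Macrophages, fibroblasts, endothelial cells and muscle cells can all express them.

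The promoter sequences of 28 of the 37 genes were found in a table from RefSeq of build GRCm38.p6, with 250 bases before and 50 bases from the start of transcription on. The core of the response element was searched on both strands as GAAA, any 2 bases and GAAA again. It occurred in 15 of the 28 promoters (53.6%) and in 1079 of the 27025 gene symbols with a promoter in the table (3.99%). The dimer site of STAT proteins, searched as TTCNNNGAA, which is its own reverse complement, occurred in 7 of the 28 promoters (25%) and in 9.55% of all symbols. Matches were counted whether or not they overlapped each other or the other motif. A match describes the letters of the window and not a bound site. Other genes that were high in the hearts of A25, A30 and A31 described below, such as Irf7, Irf9 and Ifit2, held no match to the response element core. The 200 bases before the start are printed 5′ to 3′ on the gene's own strand for 6 of the 15 genes with a match. Matches to that core, in either orientation, are in capitals:

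Isg15, chr4:156200819-156201018, minus strand: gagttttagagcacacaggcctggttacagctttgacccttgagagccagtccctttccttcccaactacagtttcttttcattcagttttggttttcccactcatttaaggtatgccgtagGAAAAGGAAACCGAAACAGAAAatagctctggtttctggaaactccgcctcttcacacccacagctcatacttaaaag
Ifit1, chr19:34640689-34640888, plus strand: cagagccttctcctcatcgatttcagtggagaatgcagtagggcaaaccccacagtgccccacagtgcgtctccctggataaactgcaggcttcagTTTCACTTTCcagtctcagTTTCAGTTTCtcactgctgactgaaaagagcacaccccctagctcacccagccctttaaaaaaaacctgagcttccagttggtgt
Ifit3, chr19:34583329-34583528, plus strand: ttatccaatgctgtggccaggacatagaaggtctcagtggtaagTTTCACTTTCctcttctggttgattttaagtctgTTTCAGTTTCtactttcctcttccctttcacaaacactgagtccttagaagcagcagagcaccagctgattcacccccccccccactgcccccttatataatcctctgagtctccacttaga
Ifit3b, chr19:34607757-34607956, plus strand: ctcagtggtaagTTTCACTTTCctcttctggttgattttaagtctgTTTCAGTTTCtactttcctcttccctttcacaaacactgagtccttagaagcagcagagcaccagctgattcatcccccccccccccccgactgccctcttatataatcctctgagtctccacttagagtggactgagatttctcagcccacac
Bst2, chr8:71537473-71537672, minus strand: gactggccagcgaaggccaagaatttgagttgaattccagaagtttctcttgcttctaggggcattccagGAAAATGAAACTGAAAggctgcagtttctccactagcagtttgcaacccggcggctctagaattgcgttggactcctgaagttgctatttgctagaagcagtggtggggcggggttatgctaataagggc
Oas1a, chr5:120907526-120907725, minus strand: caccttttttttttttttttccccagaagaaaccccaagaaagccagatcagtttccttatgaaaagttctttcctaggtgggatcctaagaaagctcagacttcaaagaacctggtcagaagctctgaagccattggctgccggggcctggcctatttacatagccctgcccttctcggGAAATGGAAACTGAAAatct

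The Isg15 window held 3 matches, and the other 5 windows held 2 each. The Ifit3 and Ifit3b windows were near copies of each other, with 166 identical bases in 174 aligned ones. The longest open reading frames of the pair were identical at 1201 of 1212 bases (99.1%). Reads from these genes can be split between them by the counting, so the separate values of Ifit3 and Ifit3b are uncertain.

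Levels are TPM, which is scaled for transcript length, so levels of different genes can be set side by side, but it keeps no depth, and no counting interval can be given. Mitochondrially encoded transcripts took 43.4% to 55.7% of TPM in hearts labelled KO and 51.9% to 60.6% in wild-type hearts. In scWAT they took 10.6% to 12.3% in mice labelled KO and 6.14% to 14.4% in wild-type mice. The defining markers fitted the tissues, with 6 cardiomyocyte markers summing to at least 13923 TPM in hearts labelled KO and 19972 TPM in wild-type hearts, and 6 adipocyte markers summing to at least 37179 TPM in scWAT labelled KO and 34757 TPM in wild-type scWAT. Elavl1, the gene to be deleted, stood at 42.9, 42.0 and 36.2 TPM in the scWAT of A24, A26 and A30 labelled KO, against 33.4, 34.5, 27.6, 19.5 and 19.0 TPM in the wild-type scWAT of A5, A7, A8, A12 and A14. In hearts it stood at 10.3, 8.82, 15.9 and 8.45 TPM in A25, A29, A30 and A31 labelled KO, against 6.66, 12.6, 12 and 10.4 TPM in wild-type A5, A7, A8 and A14. It was thus not lower in the fat labelled KO, and every direction below rests on the labels. The scWAT library of A26 held lymphocyte transcripts, with 8 B cell markers summing to 562 TPM, against at most 24.7 TPM in wild-type scWAT. Summed skeletal muscle markers reached 4010 and 7960 TPM in the scWAT of A24 and A30, against at most 883 TPM in wild-type scWAT. In bulk tissue, fewer cells of a type and less RNA per cell cannot be told apart.

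In the left ventricle, the 37 genes split the mice labelled KO into libraries with high levels and a library with low levels. A31 had the highest level of all 8 hearts for 24 of the 36 genes tested, and A30 for the other 12. A29, also labelled KO, had the lowest level of all 8 hearts for 30 of the 36. The median deviation of the 36 genes from the wild-type heart mean, on the log2(TPM + 1) scale, was 0.68 in A25, −0.54 in A29, 1.13 in A30 and 1.16 in A31, against −0.42 in A5, 0.06 in A7, 0.16 in A8 and 0.22 in A14. A29 thus stood below the wild-type hearts, while the other 3 hearts labelled KO stood above them. Median-of-ratios scaling divides each library by a size factor to take out general shifts, from 0.615 in A5 to 1.55 in A30. The medians were then 0.39 in A25, −0.44 in A29, 0.50 in A30 and 0.82 in A31. In wild-type A5, A7, A8 and A14 they were −0.006, −0.04, −0.08 and 0.15. A31 was then highest for 32 of the 36 genes and A30 for 4, and A29 was lowest for 28. The TPM values below are as deposited and hold these shifts.

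**Figure D1:**
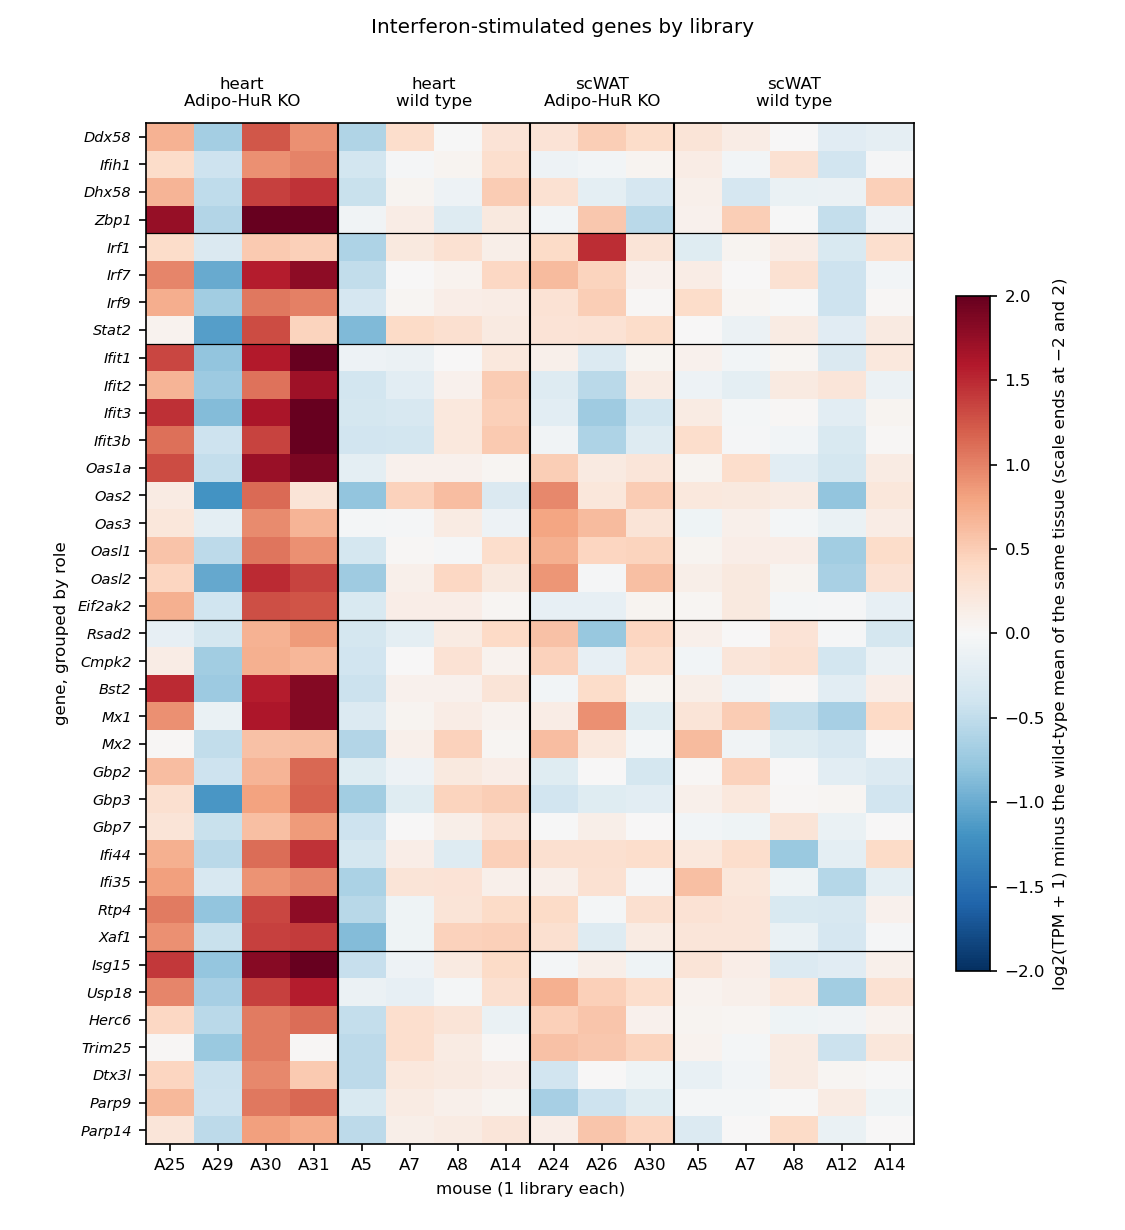
Heat map of the 37 interferon-stimulated genes (rows, grouped by role) in the 16 libraries (columns, by mouse), as log2(TPM + 1) minus the wild-type mean of the same tissue, with hearts and scWAT labelled Adipo-HuR KO to the left of their wild types. The hearts of A25, A30 and A31 are red in most rows and the heart of A29 is blue or near white, while the scWAT columns are paler, with 121 TPM of Irf1 in A26 as the clearest exception.

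With all 8 hearts, limma's test on log2(TPM + 1) called 0 of the 36 genes, where it called 6 of 11981 genes (0.0501%) higher and 0 (0%) lower. Before adjustment, with p under 0.05, 4 of the 36 were higher (Mx1, Zbp1, Oas1a and Ifit3b) and 0 lower, against 20.9% of all genes tested higher and 3.66% lower. Fold changes are given on the log2 scale after subtracting the median of all genes tested, which was 0.26 in this fit. The SE and p beside them, here and below, belong to the test of the change before that subtraction. The smallest adjusted p was that of Mx1, 0.149, with a fold change of 0.81 (SE 0.38). Zbp1 followed with 1.38 (SE 0.61, adjusted p = 0.153). In wild-type hearts Mx1 averaged 0.414 TPM and Zbp1 0.837 TPM. Both thus passed the filter of a mean of 1 TPM only through hearts labelled KO, here and without A29. The list's median fold change was 0.58 before the subtraction, against 0.26 for all genes. None of the 36 genes had groups that did not overlap, since A29 lay among or below the wild-type hearts, where 3.71% of all genes tested were higher and 0.634% lower without overlap.

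The sensors came first among the roles. Zbp1, which binds Z-form nucleic acids and can start a form of programmed cell death, stood at 5.11, 0.216, 9.09 and 12.9 TPM in the hearts of A25, A29, A30 and A31 labelled KO, against 0.733, 1.01, 0.53 and 1.08 TPM in the wild-type hearts of A5, A7, A8 and A14. The order of mice is the same in all heart values that follow. A29 was the lowest heart for this gene, and the other 3 hearts labelled KO lay above every wild-type heart. Ddx58, which encodes the cytosolic RNA sensor RIG-I, stood at 8.39, 2.61, 12.7 and 9.87 TPM in hearts labelled KO, against 2.79, 6.33, 4.72 and 5.97 TPM in wild-type hearts. Ifih1, which encodes the sensor MDA5 for long double-stranded RNA, stood at 3.69, 1.75, 5.88 and 6.27 TPM in hearts labelled KO, against 1.83, 2.58, 2.81 and 3.59 TPM in wild-type hearts. Dhx58, which encodes LGP2, a regulator of RIG-I and MDA5, stood at 2.58, 0.559, 4.74 and 5.06 TPM in hearts labelled KO, against 0.629, 1.31, 1.07 and 2.16 TPM in wild-type hearts. In each of these sensors A29 was the lowest of the 8 hearts, and the heart of A5 was the lowest wild-type heart for all but Zbp1. A5 had the smallest size factor of the hearts (0.615), and after scaling its median deviation over the 36 genes was −0.006.

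Among the transcription factors, Irf7, which amplifies the type I interferon response, stood at 17.4, 3.67, 27.0 and 31.6 TPM in hearts labelled KO, against 5.70, 8.47, 8.83 and 11.5 TPM in wild-type hearts. Irf9, the DNA-binding part of the complex with STAT2, stood at 11.8, 3.78, 15.0 and 14.6 TPM in hearts labelled KO, against 5.14, 6.97, 7.49 and 7.60 TPM in wild-type hearts. Both genes were above every wild-type heart in A25, A30 and A31 and below every wild-type heart in A29. Irf1, which interferon gamma also induces, differed less, with 14.6, 8.85, 16.3 and 15.7 TPM in hearts labelled KO, against 6.83, 12.8, 13.9 and 12.1 TPM in wild-type hearts. Stat2, which joins IRF9 in that complex, stood at 5.94, 2.07, 15.4 and 8.0 TPM in hearts labelled KO, against 2.59, 7.56, 7.22 and 6.49 TPM in wild-type hearts. In TPM as deposited its level was clearly apart in A30 alone, with A31 just above and A25 inside the wild-type range. A30 also had the largest size factor of the hearts, 1.55, and the part of that general shift was not tested.

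Among the RNA-binding and RNA-degrading effectors, Ifit1, which binds viral RNA caps, stood at 9.93, 1.51, 12 and 20.8 TPM in hearts labelled KO, against 3.04, 2.99, 3.38 and 4.0 TPM in wild-type hearts. Ifit3, a relative of Ifit1, stood at 26.7, 4.51, 30.1 and 60.2 TPM in hearts labelled KO, against 6.81, 7.0, 10.5 and 12.9 TPM in wild-type hearts. A31 stood well above A25 and A30 in both genes. Ifit2, of the same family, stood at 10.3, 3.29, 14 and 22 TPM in hearts labelled KO, against 4.48, 5.07, 6.49 and 9.0 TPM in wild-type hearts. Ifit3b, the near copy of Ifit3, stood at 7.0, 1.78, 8.50 and 14.8 TPM in hearts labelled KO, against 1.86, 1.89, 3.32 and 4.37 TPM in wild-type hearts. All 4 family members kept the order A31, A30, A25, and A29 was below every wild-type heart.

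The oligoadenylate synthetase genes were less uniform. Oas1a, whose product makes the messenger that activates RNase L, stood at 6.40, 1.16, 8.92 and 10.1 TPM in hearts labelled KO, against 1.62, 2.18, 2.19 and 2.09 TPM in wild-type hearts. Oas2, of the same enzyme family, stood at 4.85, 1.30, 10.6 and 5.28 TPM in hearts labelled KO, against 2.04, 6.22, 7.05 and 3.31 TPM in wild-type hearts. Oas1a was high in A25, A30 and A31, whereas Oas2, in TPM as deposited, was above the wild-type range in A30 alone. Oas3 stayed low, at 0.417, 0.0614, 1.33 and 0.948 TPM in hearts labelled KO, against 0.180, 0.189, 0.356 and 0.134 TPM in wild-type hearts, and fell under the filter of a mean of 1 TPM, so it was not tested. Oasl2 stood at 8.59, 2.50, 19.1 and 17.2 TPM in hearts labelled KO, against 3.37, 6.64, 8.48 and 7.20 TPM in wild-type hearts. Oasl1, a related protein that restrains Irf7 translation in mice, stood at 2.21, 0.517, 3.55 and 3.10 TPM in hearts labelled KO, against 0.695, 1.20, 1.14 and 1.76 TPM in wild-type hearts. Eif2ak2, which encodes the kinase PKR that halts translation on sensing double-stranded RNA, stood at 7.56, 2.97, 11.7 and 11.5 TPM in hearts labelled KO, against 3.23, 4.74, 4.74 and 4.38 TPM in wild-type hearts. These last 3 genes were lowest in A29 and above every wild-type heart in A25, A30 and A31.

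Among the other antiviral effectors, Bst2, or tetherin, which holds budding viruses at the cell surface, was the most abundant of the 37 genes in every group. It stood at 62.0, 12.6, 65.9 and 79.1 TPM in hearts labelled KO, against 15.6, 22.8, 22.8 and 25.8 TPM in wild-type hearts. Mx1 encodes an antiviral GTPase that is defective in most laboratory strains, and stood at 1.66, 0.287, 3.31 and 4.03 TPM in hearts labelled KO, against 0.163, 0.463, 0.550 and 0.478 TPM in wild-type hearts. Both were above every wild-type heart in A25, A30 and A31, and A29 was the lowest heart for Bst2 but not for Mx1. Rtp4, a transporter protein that interferon induces, stood at 12.3, 2.77, 15.4 and 21.4 TPM in hearts labelled KO, against 3.41, 5.09, 6.74 and 7.49 TPM in wild-type hearts. Xaf1, which promotes cell death, stood at 17.4, 6.17, 24.1 and 24.6 TPM in hearts labelled KO, against 4.38, 8.23, 12.4 and 12.6 TPM in wild-type hearts. Ifi44 stood at 5.15, 1.57, 7.14 and 9.22 TPM in hearts labelled KO, against 1.94, 3.11, 2.13 and 4.22 TPM in wild-type hearts. For these genes too the groups were apart in A25, A30 and A31. In TPM as deposited, A5 was the lowest wild-type heart for them. A5 also had the smallest size factor of the hearts, and the part of that general shift was not tested. Ifi35 stood at 16.6, 6.94, 17.5 and 18.5 TPM in hearts labelled KO, against 5.42, 10.9, 11 and 9.63 TPM in wild-type hearts. The guanylate-binding protein Gbp2, which attacks the membranes around intracellular microbes, stood at 13, 5.85, 13.7 and 19.3 TPM in hearts labelled KO, against 6.76, 7.53, 9.49 and 9.06 TPM in wild-type hearts.

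The remaining antiviral effectors overlapped with the wild-type hearts also in the high libraries. Rsad2, or viperin, which makes a chain-terminating nucleotide, stood at 5.13, 4.37, 10.1 and 11.3 TPM in hearts labelled KO, against 4.37, 4.97, 6.67 and 8.01 TPM in wild-type hearts. Cmpk2, the neighbour of Rsad2 in the RefSeq annotation and a nucleotide kinase, stood at 4.16, 1.88, 6.58 and 6.36 TPM in hearts labelled KO, against 2.57, 3.69, 4.67 and 3.89 TPM in wild-type hearts. In both genes A25 lay within the wild-type range and A30 and A31 lay above it. Mx2 stood at 1.38, 0.653, 2.49 and 2.53 TPM in hearts labelled KO, against 0.546, 1.5, 2.20 and 1.39 TPM in wild-type hearts. The guanylate-binding proteins Gbp3 and Gbp7, which are neighbours in the annotation, shared the pattern of A25 within and A30 and A31 above the wild-type range, with 10.3, 3.03, 14.9 and 19.5 TPM for Gbp3 in hearts labelled KO, against 4.62, 6.66, 11.3 and 11.7 TPM in wild-type hearts. Gbp7 ran from 3.10 TPM in A29 to 9.13 TPM in A31, against 3.23 to 5.82 TPM in wild-type hearts.

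Isg15, a ubiquitin-like protein that is attached to newly made proteins, led the last role, with 16.1, 2.77, 21.5 and 30.8 TPM in hearts labelled KO, against 3.66, 4.96, 6.28 and 7.37 TPM in wild-type hearts. Usp18, the protease that removes it and dampens interferon signalling, stood at 5.45, 1.07, 7.42 and 8.74 TPM in hearts labelled KO, against 2.03, 1.92, 2.21 and 3.08 TPM in wild-type hearts. In both genes A29 was lowest and A31 highest. Herc6, the ligase that attaches ISG15 in mice, stood at 3.02, 1.07, 5.22 and 5.53 TPM in hearts labelled KO, against 1.18, 2.81, 2.61 and 1.76 TPM in wild-type hearts. Trim25, a ubiquitin ligase that acts with RIG-I, stood at 6.44, 3.41, 14 and 6.47 TPM in hearts labelled KO, against 4.09, 8.28, 7.24 and 6.47 TPM in wild-type hearts. In TPM as deposited it was set apart in A30 alone, the heart with the largest size factor. Parp9 stood at 9.93, 4.22, 13.4 and 14.4 TPM in hearts labelled KO, against 4.61, 6.80, 6.46 and 6.20 TPM in wild-type hearts. Its partner Dtx3l, a ubiquitin ligase, stood at 5.20, 2.40, 7.95 and 5.55 TPM in hearts labelled KO, against 2.19, 4.30, 4.20 and 4.0 TPM in wild-type hearts. Parp14, an ADP-ribosyltransferase and the third of these neighbours on the chromosome, reached 10.1 TPM in A30 and 3.38 TPM in A29, against 3.39 to 6.43 TPM in wild-type hearts. Levels of the 3 neighbours were highest in A30 or A31 and low in A29.

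**Figure D2:**
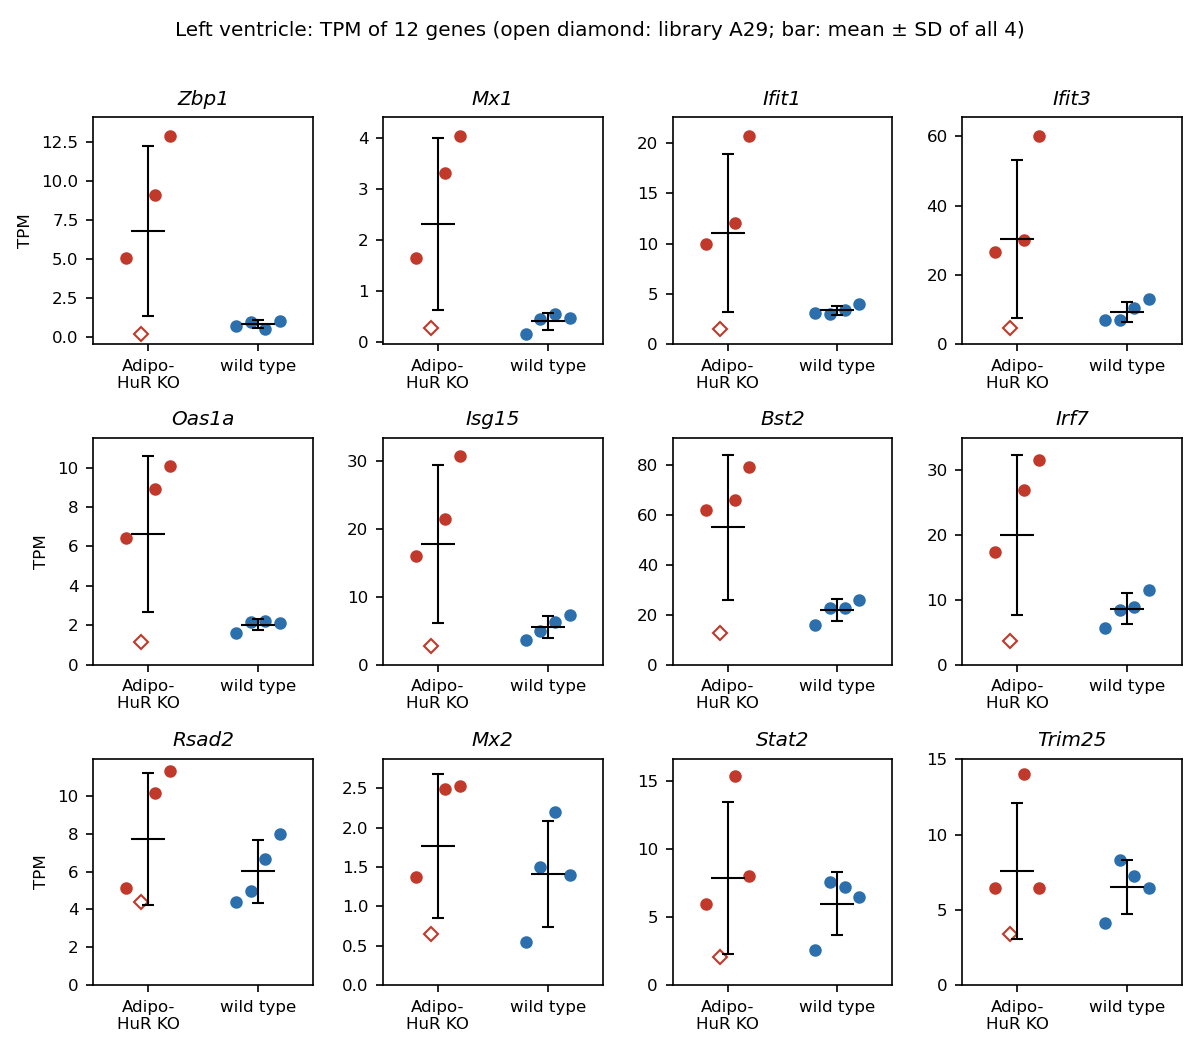
TPM of 12 interferon-stimulated genes in each heart (y axes start at or just below 0, 1 panel per gene), with the 4 hearts labelled Adipo-HuR KO to the left of the 4 wild-type hearts, and mean ± SD of all 4 as bars. The open diamond is A29, which lies near or below the wild-type points in each panel, while for Isg15 the other hearts labelled KO lie between 16.1 and 30.8 TPM, above every wild-type heart, and in Stat2 and Trim25 A30 alone stands out.

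Over the 37 genes, A29 lay below every wild-type heart in 31. Leaving A29 out therefore changed the test. Without it, limma called 25 of the 36 genes higher and 0 lower, where it called 34.8% of all 12081 genes higher and 4.16% lower. A29 was singled out after its values were known, so this fit is no independent support for a difference between the genotypes. The median fold change of the 36 genes was 0.95 before subtraction, against 0.39 for all genes tested, and 35 of the 36 lay above that median. The genes without overlap numbered 28 of 36, all higher, against 45.3% of all genes higher and 3.65% lower. After median-of-ratios scaling, which takes out the general shift, 21 of the 36 genes were called higher and 0 lower, against 19.5% higher and 20.9% lower of all genes, and all 21 were among the 25. Leaving out A31 as well brought the count to 16, for which the share of all genes is not given here.

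By role, the fit without A29 called 4 of 4 sensors, 2 of 4 transcription factors and 8 of 9 RNA-binding effectors higher. It also called 7 of 12 other antiviral effectors and 4 of 7 genes of the ISG15 and ADP-ribose group higher. Of all 12081 genes, 34.8% were called higher in this fit, and whether the roles differ was not tested. Zbp1 had the largest fold change, 1.99 after subtraction of the median of 0.39 (SE 0.28, adjusted p = 0.000191). Its wild-type mean of 0.837 TPM was under the filter of 1 TPM, so it was tested only through A25, A30 and A31. Ifit3 followed with 1.52 (SE 0.31, adjusted p = 0.00126), Isg15 with 1.46 (SE 0.27, adjusted p = 0.000679) and Ifit1 with 1.36 (SE 0.25, adjusted p = 0.000615). Bst2 and Oas1a both stood at 1.25, with adjusted p of 0.000198 and 0.000295. The other called genes ran from 0.37 for Ifih1 (adjusted p = 0.0313) to 1.13 for Ifit3b (adjusted p = 0.00423). These p-values test the change before the subtraction, and Gbp2, Herc6, Ifih1 and Ifit2 were not called after median-of-ratios scaling. The 11 genes that did not pass were Cmpk2, Dtx3l, Gbp3, Gbp7, Irf1, Mx2, Oas2, Parp14, Rsad2, Stat2 and Trim25, with fold changes from −0.03 for Trim25 to 0.38 for Gbp3. Of the called genes with a promoter in the table, 10 of 19 held the response element, and of those not called, 4 of 8 did.

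**Figure D3:**
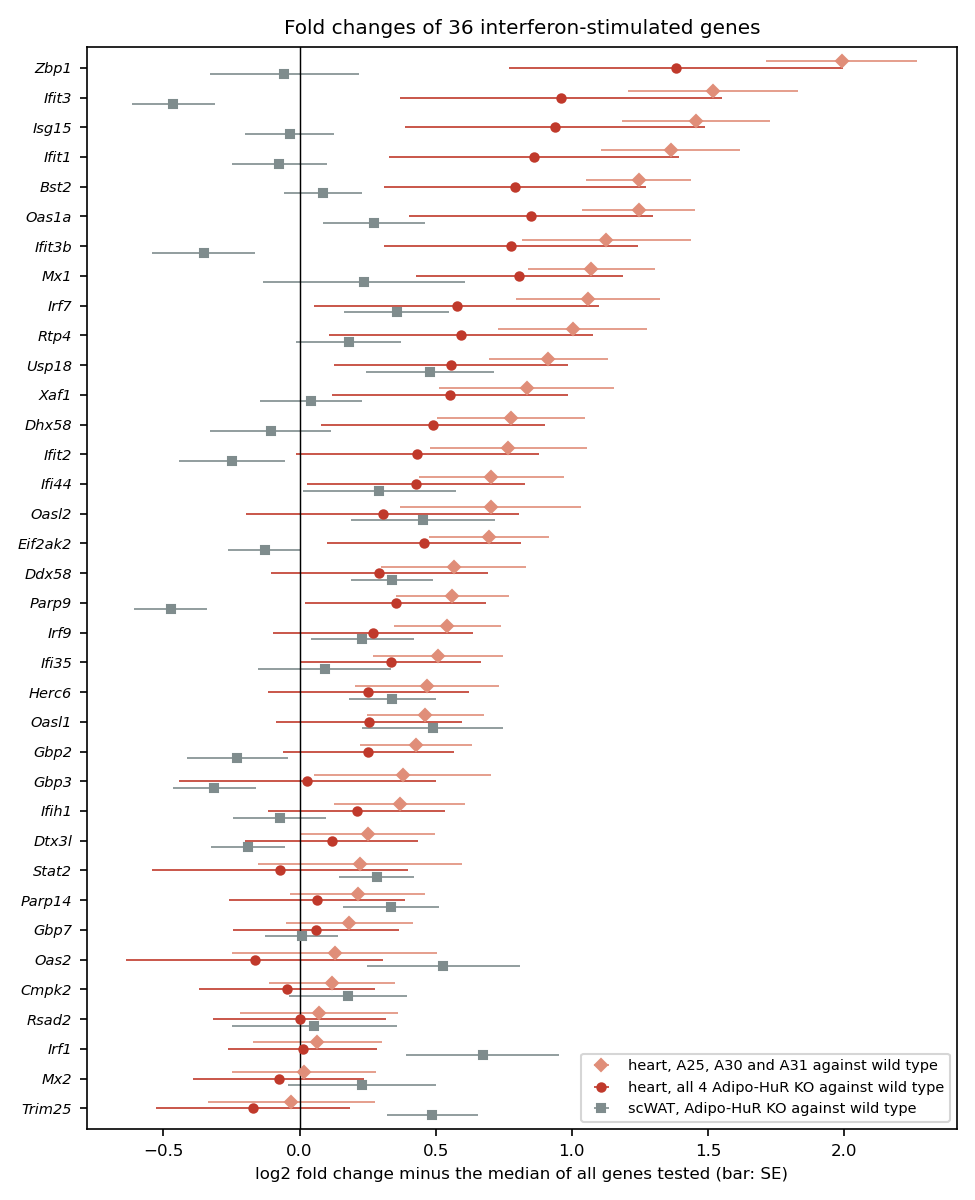
Log2 fold change (x axis, minus the median of all genes tested, bar: SE) of the 36 tested genes for the hearts of A25, A30 and A31, for all 4 hearts and for scWAT labelled Adipo-HuR KO, each against its wild type. Without A29 the values run from −0.03 for Trim25 to 1.99 for Zbp1 with narrower bars than with all hearts, and the scWAT values lie between −0.47 for Parp9 and 0.67 for Irf1.

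The ligands were nearly silent. Of 11 interferon genes, Ifna1, Ifna2, Ifna4, Ifna5, Ifnl2 and Ifnl3 were listed at 0 in all 16 libraries. The highest value of any was 0.778 TPM for Ifng in the scWAT of A26, and Ifnb1, Ifnab, Ifnk and Ifne stayed at or under 0.207 TPM. In heart, Ifng reached at most 0.311 TPM, in A25. The receptor genes were expressed. Ifnar1 stood at 10.9, 5.14, 14.6 and 13.1 TPM in hearts labelled KO, against 4.22, 6.78, 7.67 and 7.51 TPM in wild-type hearts. Ifngr1, a chain of the interferon gamma receptor, stood at 58.0, 19.3, 53.8 and 48.9 TPM in hearts labelled KO, against 18.2, 26.1, 25.8 and 22.2 TPM in wild-type hearts. Both were above the wild-type range in A25, A30 and A31 and inside it in A29. With all hearts, 0 of 72 tested genes of a wider interferon pathway list passed, and 18 were higher at an unadjusted p under 0.05, where 20.9% of all genes were. Without A29, Ifngr1 (0.80, SE 0.17, adjusted p = 0.000563), Ifnar1 (0.51, SE 0.23, adjusted p = 0.0119) and Ifnar2 (0.31, SE 0.21, adjusted p = 0.026) were called higher, whereas Ifngr2 (−0.56, adjusted p = 0.373) and Il10rb (−0.67, adjusted p = 0.168) did not pass. The p-values test the change before the subtraction of the median, so they include the general shift. Ifnlr1, the interferon lambda receptor, averaged under 1 TPM and was not tested.

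Of the 72 pathway genes tested, 37 were called higher and 0 lower without A29, where 34.8% of all genes were higher and 4.16% lower. After median-of-ratios scaling 30 were higher and 7 lower, against 19.5% and 20.9% of all genes. The list was chosen with earlier results of these data known. Ifi27l2a, an interferon-induced gene of the ISG12 family, changed most, with 188, 19.3, 287 and 411 TPM in hearts labelled KO, against 24.7, 25.3, 44.6 and 32.1 TPM in wild-type hearts (2.76, SE 0.28, adjusted p = 5.09e-05). Ifitm2, which blocks the entry of viruses, stood at 179, 46.6, 162 and 166 TPM in hearts labelled KO, against 52.1, 64.6, 72.1 and 58.4 TPM in wild-type hearts (1.06, SE 0.15, adjusted p = 9.04e-05). A29 was the lowest of the 8 hearts in both genes. Slfn2 (1.34), the endosomal RNA sensor Tlr7 (1.33), the DNA-sensing adaptor Tmem173 (1.24) and the feedback inhibitor Socs3 (1.56) were also called, with adjusted p between 0.000183 and 0.000285.

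Macrophage markers moved with these genes across the hearts. The summed TPM of 10 such markers was 1369 in A25, 174 in A29, 1423 in A30 and 1676 in A31, against 178 to 286 in wild-type hearts. Without A29, 9 of the 10 were called higher, where 34.8% of all genes were. None of the 10 was at 0 in any heart. The defining marker Adgre1 stood at 18.8, 2.24, 25.5 and 28.0 TPM in hearts labelled KO, against 2.72, 3.67, 3.43 and 2.54 TPM in wild-type hearts. Fibroblast markers, 6 of 6 called higher without A29, summed to between 235 TPM in A29 and 2507 TPM in A30 among hearts labelled KO, against 195 to 298 TPM in wild-type hearts. T cell markers summed to at most 6.73 TPM and B cell markers to at most 6.73 TPM in hearts labelled KO, against at most 2.94 TPM and 4.44 TPM in wild-type hearts, NK cell markers to at most 1.83 TPM, against 0.674 TPM. The 5 plasmacytoid dendritic cell markers summed to 917 to 1206 TPM in hearts labelled KO, against 1110 to 1611 TPM in wild-type hearts, nearly all of it Cox6a2, a subunit of the respiratory chain in striated muscle, while Siglech did not exceed 0.171 TPM in hearts labelled KO and 0.286 TPM in wild-type hearts. Lymph node stroma markers summed to 76.4, 15.2, 72.2 and 103 TPM in A25, A29, A30 and A31, against 11.2 to 38.7 TPM in wild-type hearts, most of it Ccl21a, with Glycam1 at 0 in every heart. Cardiomyocyte markers summed to 18102, 24650, 20068 and 13923 TPM in A25, A29, A30 and A31, against 19972 to 27934 TPM in wild-type hearts. Skeletal muscle markers summed to 1785 to 3270 TPM in hearts labelled KO, against 1200 to 1559 TPM in wild-type hearts, and were above the wild-type range in A29 as well. That list did not move as 1. With all hearts, the fold change was 2.96 for Acta1, 0.63 for Tnnt3, 0.24 for Mylpf and −0.49 for Ckm, and none passed. Myh4, Myh1, Actn3 and Pvalb averaged under 1 TPM and were not tested. The part of these cell types and of the lower mitochondrial share in the higher levels was not tested.

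**Figure D4:**
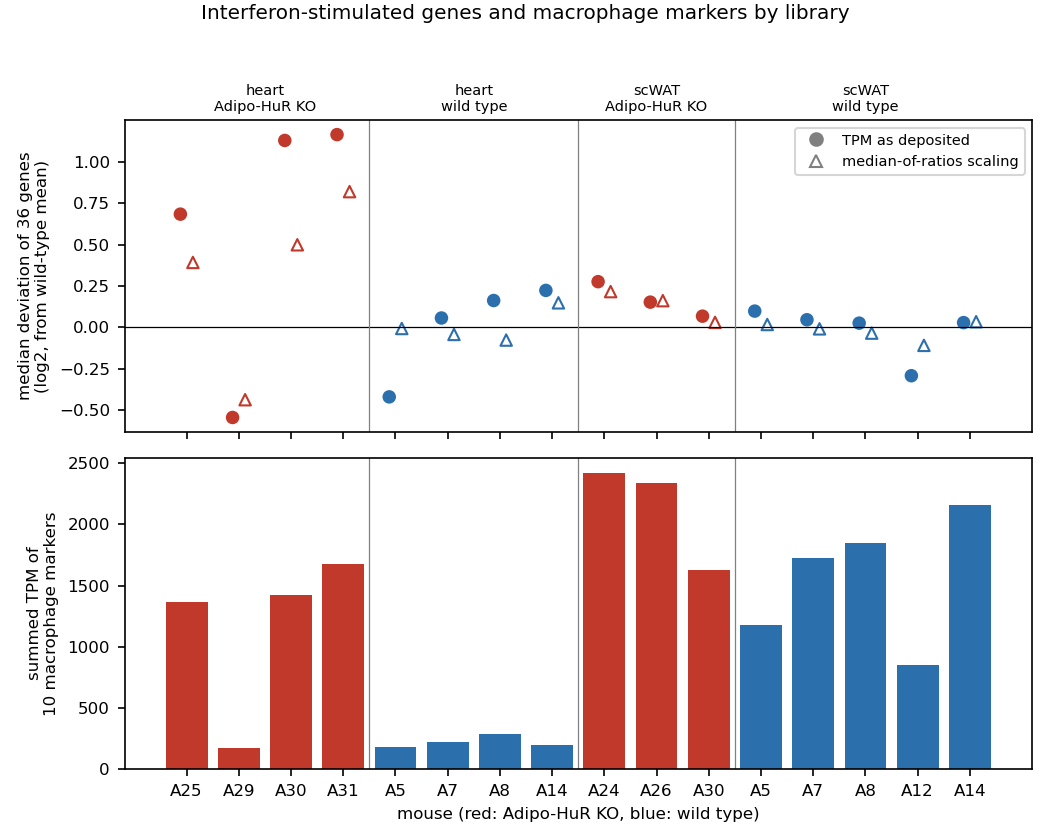
Median deviation of 36 interferon-stimulated genes from the wild-type mean of the tissue (upper panel, log2, filled circles for TPM as deposited and open triangles after median-of-ratios scaling) and summed TPM of 10 macrophage markers (lower panel, bars from 0), by library, with mice labelled Adipo-HuR KO (red) left of wild type (blue). In heart both measures are high in A25, A30 and A31 and low in A29, and in scWAT the marker sum varies while the deviation stays between −0.29 and 0.28.

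In scWAT none of the 36 tested genes passed, and the fold changes after subtraction of the median ran from −0.47 for Parp9 to 0.67 for Irf1. Of 13682 genes tested, limma called 0.0146% higher and 0.00731% lower. An unadjusted p under 0.05 was reached by 5 higher and 2 lower members, against 8.11% and 7.52% of all genes. The list's median fold change was 0.17 before subtraction, against 0.03 for all genes. Groups did not overlap for 6 higher genes (Ddx58, Herc6, Oasl1, Stat2, Trim25 and Usp18) and for 2 lower genes (Ifit3 and Parp9), against 5.23% and 5.06% of all genes. Without A26, which held lymphocyte transcripts, the count without overlap was 11 higher and 2 lower, against 9.72% and 6.55% of all genes. In that fit limma called 0 of the 36 genes, where it called 0.923% of all genes higher and 0.0447% lower, and an unadjusted p under 0.05 was reached by 4 higher and 1 lower gene, against 6.06% and 4.03% of all genes. Summed macrophage markers ran from 1627 to 2422 TPM in scWAT labelled KO and from 854 to 2159 TPM in wild-type scWAT, and their part was not tested.

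Parp9 had the smallest p, with 35.8, 42.7 and 48.1 TPM in the scWAT of A24, A26 and A30 labelled KO, against 55.4, 55.8, 57.1, 64.2 and 53.9 TPM in the wild-type scWAT of A5, A7, A8, A12 and A14 (−0.47, SE 0.13, adjusted p = 0.225). The order of mice is the same in the scWAT values that follow. Ifit3 stood at 32.4, 22.6 and 29.1 TPM in scWAT labelled KO, against 42.4, 36.6, 38.4, 32.5 and 39.2 TPM in wild-type scWAT (−0.46, SE 0.15, adjusted p = 0.251). Both genes, high in the hearts of A25, A30 and A31, were below every wild-type library in scWAT, Ifit3 by a narrow margin in A24. Trim25 stood at 23.4, 22.7 and 21.1 TPM in scWAT labelled KO, against 16, 14.8, 17.2, 11.1 and 18.1 TPM in wild-type scWAT (0.49, SE 0.17, adjusted p = 0.231). Ddx58 stood at 20.4, 23.9 and 21.7 TPM in scWAT labelled KO, against 20.1, 18.6, 16.8, 14.2 and 14.6 TPM in wild-type scWAT (0.34, SE 0.15, adjusted p = 0.29). Stat2 stood at 24.8, 25.1 and 26.5 TPM in scWAT labelled KO, against 20.4, 18.5, 22.7, 17.1 and 23.0 TPM in wild-type scWAT (0.28, SE 0.14, adjusted p = 0.308). In Trim25, Ddx58 and Stat2 the groups were close together, with A5 or A14 as the nearest wild-type library.

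Irf1 stood at 56.3, 121 and 51.2 TPM in scWAT labelled KO, against 36.2, 44.6, 47.3, 34.5 and 54.4 TPM in wild-type scWAT (0.67, SE 0.28, adjusted p = 0.289), and the fold was 0.29 without A26 (adjusted p = 0.602). The high value was that of A26, where 8 T cell markers summed to 658 TPM, against at most 21.0 TPM in wild-type scWAT, and the part of lymphocytes in it was not tested. Herc6 stood at 7.66, 8.19 and 5.63 TPM in scWAT labelled KO, against 5.48, 5.38, 4.85, 4.92 and 5.57 TPM in wild-type scWAT. Usp18 stood at 13.9, 11.7 and 10.7 TPM in scWAT labelled KO, against 8.58, 8.80, 9.57, 4.60 and 10.3 TPM in wild-type scWAT. Oasl1 stood at 4.19, 3.29 and 3.32 TPM in scWAT labelled KO, against 2.30, 2.50, 2.49, 0.975 and 3.12 TPM in wild-type scWAT. In each of the last 3 genes the lowest library labelled KO lay just above the highest wild-type library. Irf7 stood at 48.5, 42.5 and 32.6 TPM in scWAT labelled KO, against 34.4, 30.9, 38.3, 22.8 and 29.7 TPM in wild-type scWAT (0.36, SE 0.19, adjusted p = 0.355). Parp14 stood at 15.3, 21.0 and 19.1 TPM in scWAT labelled KO, against 11.4, 13.9, 18.5, 12.6 and 14.1 TPM in wild-type scWAT (0.34, SE 0.18, adjusted p = 0.342). Oas2 stood at 9.22, 5.14 and 6.44 TPM in scWAT labelled KO, against 5.06, 4.98, 4.86, 2.05 and 5.17 TPM in wild-type scWAT (0.53, SE 0.28, adjusted p = 0.358). These 3 genes overlapped between the groups and completed the 12 smallest p-values.

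The most abundant of the other genes in each role overlapped as well. Oasl2 stood at 28.8, 14.9 and 23.5 TPM in scWAT labelled KO, against 16.6, 17.5, 15.7, 9.26 and 18.6 TPM in wild-type scWAT. Gbp2 stood at 44.8, 53.5 and 41.7 TPM in scWAT labelled KO, against 54.2, 73.5, 53.6, 45.6 and 43.7 TPM in wild-type scWAT. Dtx3l stood at 17.4, 22.9 and 21.5 TPM in scWAT labelled KO, against 20.6, 22, 25.8, 23.5 and 22.8 TPM in wild-type scWAT. Oasl2 was low in A26 and high in the other 2 libraries labelled KO, and Gbp2 and Dtx3l lay in the lower part of the wild-type range or under it. Rsad2 had its lowest and its highest scWAT level in mice labelled KO, with 8.94, 2.92 and 7.86 TPM in scWAT labelled KO, against 6.06, 5.66, 6.93, 5.48 and 4.16 TPM in wild-type scWAT. Oas3, at 1.82, 1.54 and 0.961 TPM in scWAT labelled KO, against 0.542, 0.758, 0.587, 0.494 and 0.816 TPM in wild-type scWAT, did not overlap between the groups, but averaged under 1 TPM and was not tested.

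Several of the genes that led in heart had folds near 0 in scWAT. Isg15 stood at 13.9, 15.5 and 13.3 TPM in scWAT labelled KO, against 17.2, 15.6, 11.6, 12 and 15.4 TPM in wild-type scWAT (−0.04, SE 0.16, adjusted p = 0.996). Zbp1 stood at 16.3, 25.2 and 11.3 TPM in scWAT labelled KO, against 18.1, 24.4, 16.8, 12 and 15.8 TPM in wild-type scWAT (−0.06, SE 0.27, adjusted p = 0.974). Bst2 stood at 87.3, 116 and 93.3 TPM in scWAT labelled KO, against 97.7, 86.1, 91.7, 77.8 and 99.4 TPM in wild-type scWAT (0.09, SE 0.14, adjusted p = 0.685). The groups overlapped in all of these. The number A30 was shared by a library of each tissue, and its scWAT stood within the wild-type range for Isg15 and Bst2 and below it for Zbp1, whereas its heart stood above the wild-type hearts for all of them.

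Of 76 pathway genes tested in scWAT, 0 passed, an unadjusted p under 0.05 was reached by 18 higher and 2 lower genes, against 8.11% and 7.52% of all genes. Without A26 the counts were 5 and 2 of 75, near the 6.06% and 4.03% of all genes. Ifi27l2a stood at 8260, 12752 and 8371 TPM in scWAT labelled KO, against 2717, 2926, 5492, 1479 and 5526 TPM in wild-type scWAT (1.53, SE 0.44, adjusted p = 0.217). Ifi27, of the same family, stood at 508, 399 and 520 TPM in scWAT labelled KO, against 1326, 1007, 677, 710 and 979 TPM in wild-type scWAT (−0.98, SE 0.24, adjusted p = 0.216). The groups did not overlap in either gene, and the directions were opposite. Ifnar2 stood at 87.3, 67.9 and 84.6 TPM in scWAT labelled KO, against 130, 117, 96.9, 131 and 123 TPM in wild-type scWAT (−0.61, SE 0.15, adjusted p = 0.216). Ifi203 (1.19), Trim30a (0.77) and Gbp9 (0.56) were the others among the 6 smallest p-values, with adjusted p between 0.216 and 0.231. The other receptor genes tested had adjusted p of at least 0.686.

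Whether the difference between genotypes itself differed between heart and scWAT was tested with an interaction term over all 16 libraries. With all libraries, 0 of 36 genes passed, where 0.00867% of 11536 genes were called higher and 0.052% lower. Without adjustment, 4 genes were higher and 0 lower at a p under 0.05, against 17% and 3.42% of all genes. The smallest adjusted p was 0.14 for Parp9, with a difference of 0.81, heart minus scWAT, after subtraction of the median. Without the heart of A29, 16 of the 36 were called higher and 0 lower, where 22.4% of all genes were called higher and 2.27% lower, and after median-of-ratios scaling 11 were higher and 0 lower, where 10.7% of all genes were higher and 11.4% lower. In the fit of TPM as deposited without A29, the largest differences were those of Zbp1 (2.03, SE 0.41, adjusted p = 0.00087), Ifit3 (1.97, SE 0.36, adjusted p = 0.000453), Isg15 (1.48, SE 0.32, adjusted p = 0.000996) and Ifit3b (1.46, SE 0.37, adjusted p = 0.00279). Zbp1, at a mean of 0.837 TPM in wild-type hearts, again passed the filter in heart only through hearts labelled KO. Parp9 stood at 1.02 (SE 0.23, adjusted p = 0.000721). Irf1, Trim25 and Oas2 had negative differences of −0.62, −0.53 and −0.41 and did not pass.

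The wild-type libraries give the levels of the list without the deletion. In wild-type heart, 34 of the 37 genes averaged at least 1 TPM and 2 at least 10 TPM, Bst2 at 21.8 ± 4.33 TPM and Irf1 at 11.4 ± 3.14 TPM (SD, n = 4). In wild-type scWAT, 36 averaged at least 1 TPM and 22 at least 10 TPM, led by Bst2 at 90.6 ± 8.85 TPM and Parp9 at 57.3 ± 4.06 TPM (SD, n = 5). Oas3 was the lowest gene in both tissues, at 0.215 ± 0.0969 TPM in heart and 0.639 ± 0.140 TPM in scWAT. With TPM as deposited, 32 of 36 genes were lower in heart and 0 higher, and the groups did not overlap for 29 lower genes. These counts lie near the background, since 78.5% of 13093 genes were called lower and 8.12% higher, 73.2% were lower and 6.74% higher without overlap, and the median of all genes was −1.27. After median-of-ratios scaling, 17 members were lower and 6 higher, against 34.2% and 33.1% of all genes. Parp9 (−1.80) and Zbp1 (−2.04) were lowest in heart relative to the median of all genes, and Dtx3l (−1.12) and Gbp2 (−1.30) came next. Rsad2 (1.32), Ifi44 (1.48) and Oas2 (1.27) lay above that median and, before its subtraction, did not pass (adjusted p = 0.788, 0.449 and 0.999), whereas after scaling they were called higher in heart. Macrophage markers were 10 of 10 lower in heart, and their part in these differences was not tested.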

How the data were processed

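Bulk RNA was extracted from flash-frozen tissue with Trizol and libraries were made with an Illumina TruSeq kit, per the labels' protocols. The authors deposited 1 table of TPM values per gene symbol for each of 16 libraries, per the file headers. Which aligner, quantifier, gene models or genome build produced them is not given in the sources used here. TPM keeps no depth, so counting error is unknown, and a few abundant transcripts, such as the mitochondrial ones in heart, lower the TPM of all others.

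Values were taken to log2(TPM + 1), genes averaging 1 TPM or more over the libraries compared were kept, and limma 3.58.1 in R 4.3.3 was fitted to all of them, with a trend of variance on level and Benjamini-Hochberg adjustment over all genes tested. A gene was called at an adjusted p under 0.05. Tests were two-sided and used unsubtracted values. Fold changes understate the change of genes at low levels. Within each tissue only that tissue's libraries entered the fit, and the difference between tissues was an interaction term. The fit was also run on simulated data with independent noise for each gene and library. That simulation held no shifts of whole libraries, so it does not test the heart calls that turn on A29. Promoters came from RefSeq (GRCm38.p6) and reading frames from the transcripts of GENCODE vM21. Both were read with Python 3.11.15, and sequences were aligned with Biopython 1.88.

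The 37 members and the other lists were chosen with earlier results of these data known. All members are named. Per comparison, the members past the threshold, filled up to 12 by smallest p, and 2 per role with the highest mean TPM are given in every library, except that between wild-type tissues most of the many called members are given in every heart only. Of the pathway list, up to 6 genes with the smallest p per comparison are named, and receptors, ligands and Elavl1 always, and 1 gene of that list is not reported here.

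Alternatives changed the pseudocount, the filter, the scaling, the weights and the libraries.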

Additional observations from a re-analysis of the deposited data

Results flagged for a closer look

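In 111 groups of libraries looked at, the 37 genes in the groups of 4 or 5 libraries, 4 values lay far from the rest of their group by Dixon's criterion, where chance alone marks about 1 in 20 groups. The heart of A29, labelled KO, had 6.94 TPM of Ifi35. The wild-type heart of A5 had 2.19 TPM of Dtx3l. In wild-type scWAT, Oas2 stood at 2.05 TPM in A12 and Mx2 at 3.91 TPM in A5, each apart from the other 4 libraries.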

How the results depend on the processing

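In heart, the count of interferon-stimulated genes called higher by limma was 0 with all libraries, and it ran from 0 to 25 when each library was left out in turn, with 25 only without A29. Array weights, which down-weight divergent libraries, gave 23, where they called 43.1% of all genes higher and 22.7% lower. Without A29, the count was 21 after median-of-ratios scaling, 20 after quantile normalization, 22 without mitochondrially encoded genes, 25 with a pseudocount of 0.25, 25 with a pseudocount of 5, 23 with no filter and, with a mean of at least 5 TPM, 16 of the 24 genes then tested. Of all genes, 34.8% were called higher without A29 as deposited and 19.5% after median-of-ratios scaling. Counts in this paragraph without such a share do not tell how far the list stands out from all genes. Leaving out a further heart gave 25 without A5, 24 each without A7, A8 or A14, 25 without A25, 21 without A30 and 16 without A31. For the difference between tissues, the count called higher was 0 with all libraries and 0 to 16 with each left out in turn, with 16 only without the heart of A29, and array weights gave 14 higher and 1 lower, against 30% and 15.6% of all genes. Without that heart, it was 11, 12, 12, 17, 13, 12 and 13 under those scalings, pseudocounts and filters in the same order, the last again of 24 genes tested. Leaving out a further heart gave 14 without A5, 15 without A7, 17 without A8, 17 without A14, 19 without A25, 12 without A30 and 10 without A31. In scWAT, 0 of the genes passed under any alternative run. Between the wild-type tissues, the genes lower in heart numbered 32, 29 to 32 with each library left out, and 17 with either median-of-ratios scaling or quantile normalization. The genes higher in heart numbered 6 under median-of-ratios scaling, 7 under quantile normalization and 3 without mitochondrially encoded genes. The cause was not tested. Over all genes, the calls in scWAT were 2 higher and 1 lower, against 124 and 6 without A26, 41 and 34 without A30, and 66 and 14 with array weights.

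Some heart and scWAT libraries share a title number, and the labels do not say what it marks. The deviations from the group means of same-numbered wild-type libraries correlated across genes at 0.043 (A5), 0.018 (A7), 0.115 (A8) and 0.105 (A14), the consensus correlation was −0.044, and 4 of 8 libraries correlated best with their own number. With that number as a block, 0 interferon-stimulated genes were called for the difference between tissues with all libraries. Without the heart of A29, an alternative chosen after seeing the data, 16 were higher, as without the block, where 22.3% of all genes were. With the block 31 were lower in wild-type heart, where 79% of all genes were. TPM keeps no depth, so no detection limit can be given, and 3 or 4 libraries labelled KO per tissue limit the tests.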
